A study of Mus musculus with 68 samples.

Results

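The integrin and laminin chain genes were 37 of the 27179 gene identifiers counted by RNA sequencing in mesenchymal stromal cells cultured from mouse long bones. They were taken by symbol, as every integrin alpha chain (Itga, 18 genes), integrin beta chain (Itgb, 8 genes) and laminin chain (Lama, Lamb and Lamc, 11 genes) in the table. The family was taken up because Itgb4 ranked low in the Het cultures at 12 months, so its values in that comparison are described without a test. Of the 37 genes, 34 passed the filter on low counts. Itgad, Itgae and Itgb6 did not, and none of these 3 exceeded 0.615 CPM in any sample, CPM being counts scaled to a common library total after TMM normalization, which is the level used throughout unless given per kilobase.

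The cells came from mice of 2 genotypes at 3 and 12 months of age (3M and 12M). Het mice carried 1 floxed allele and are labelled Ezh2fl/+:Prxx-1-Cre, and WT mice are labelled Ezh2+/+:Prrx-1-Cre. Every mouse, WT included, therefore carried Cre under the Prrx1 promoter, which is active in limb mesenchyme, and floxed deletion is limited to cells of that origin. EZH2 is the catalytic subunit of Polycomb repressive complex 2 and methylates histone H3 at silent genes. The biological samples numbered 3 for Het 3M (S8, S10, S14), 4 for WT 3M (S3, S4, S5, S12), 6 for Het 12M (S1, S9, S11, S15, S16, S17) and 4 for WT 12M (S2, S6, S7, S13), and values for groups of 3 or 4 are listed below in that order. The labels do not say whether a sample is 1 mouse, so p-values measure the spread between these cultures, which may be partly technical.

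An integrin is a receptor made of 1 alpha and 1 beta chain that joins the matrix outside the cell to the actin skeleton inside it, or, for integrin α6β4, to intermediate filaments. A laminin is a cross-shaped trimer of 1 alpha, 1 beta and 1 gamma chain that builds basement membranes, and its alpha chain carries the main sites that integrins bind. Marrow stromal cells and osteoblasts hold on to collagen and fibronectin through integrins of the β1 and αv classes, and stromal laminins line the vessels and niches of the marrow.

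The depth was 17326547 to 20001884 counts in Het 3M, 19875204 to 24212728 in WT 3M, 13687876 to 28597221 in Het 12M and 16856720 to 23575978 in WT 12M. Ezh2 had 11.8, 12.8 and 8.47 CPM in Het 3M against 13.6, 13.4, 14.3 and 9.17 CPM in WT 3M, and its level ranged from 8.61 to 25.2 CPM in Het 12M against 7.63 to 35.7 CPM in WT 12M. The genotypes overlapped at both ages, with log2 differences of -0.19 ± 0.43 at 3M and -0.16 ± 0.36 at 12M (SE), and the stretch removed by Cre is not given in the sources used here, so counts over the whole gene are a weak check of the label. Stromal markers were present in all 17 samples, with Prrx1 at 171 to 895 CPM and Pdgfra at 96 to 385 CPM, while 8 of 9 epithelial markers stayed at or below 0.458 CPM and the ninth, Trp63, was at 0.988 to 21.3 CPM. The samples labelled male were S8 and S10 of Het 3M, S5 and S12 of WT 3M, S17 of Het 12M and S2 and S13 of WT 12M. All others were labelled female. Transcripts from the X and Y chromosomes went against the labelled sex in 4 of 4 WT 12M samples and in 0 of the others, and S7 of WT 12M held both Xist (81.6 CPM) and Y-linked transcripts (mean 35 CPM). In 3 libraries sums of marker genes stood apart. WT 12M S6 had 1355 CPM over 10 Schwann cell and neural crest markers, against 115 CPM or less in each other sample. Het 12M S9 had 40821 CPM over 12 macrophage and myeloid markers, against 2796 CPM or less elsewhere. Het 12M S15 had 6473 CPM over 11 stromal markers, the lowest sum of the 17. Of these markers, Col1a1 (1503 CPM), Col1a2 (1661 CPM) and Prrx1 (171 CPM) were lowest in S15, while Ly6a (2108 CPM) and Twist2 (28.8 CPM) were highest there. S6 was the highest sample for 13 of the 34 genes that passed the filter and S15 the lowest for 17. In bulk RNA, fewer cells of a type and less RNA per cell cannot be told apart.

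The highest transcript levels in the family were those of the β1 and β5 chains. On a scale that allows genes to be set side by side, TMM-scaled CPM per kilobase of exon, the β1 chain Itgb1, which pairs with most of the alpha chains here, had the highest level, 409 as the mean of 17 samples. Itgb5, which pairs with αv in vitronectin receptors, followed at 146 CPM per kilobase. The most abundant alpha chain gene was Itga11, whose product binds fibrillar collagen with β1, at 79 CPM per kilobase. Itgav was at 30.3 and Itga5, the fibronectin receptor chain, at 25.9 CPM per kilobase, neighbours whose samples overlapped (15.6 to 64.8 and 13.3 to 69.6). Among laminins, Lamb2 (84.7) and Lamb1 (55.5) exceeded Lama4 (24.9) and Lamc1 (22.7 CPM per kilobase), so the chains of a laminin trimer were not at equal transcript levels. Itgb4 was at 2 CPM per kilobase and ranked 19 of 37. Over coding length in place of exons, Itgb1 and Itgb5 stayed first and second and Itgb4 ranked 22, while Itga1 ranked 7 in place of 11, Itga4 20 in place of 26 and Itgb8 27 in place of 34.

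**Figure D1:**
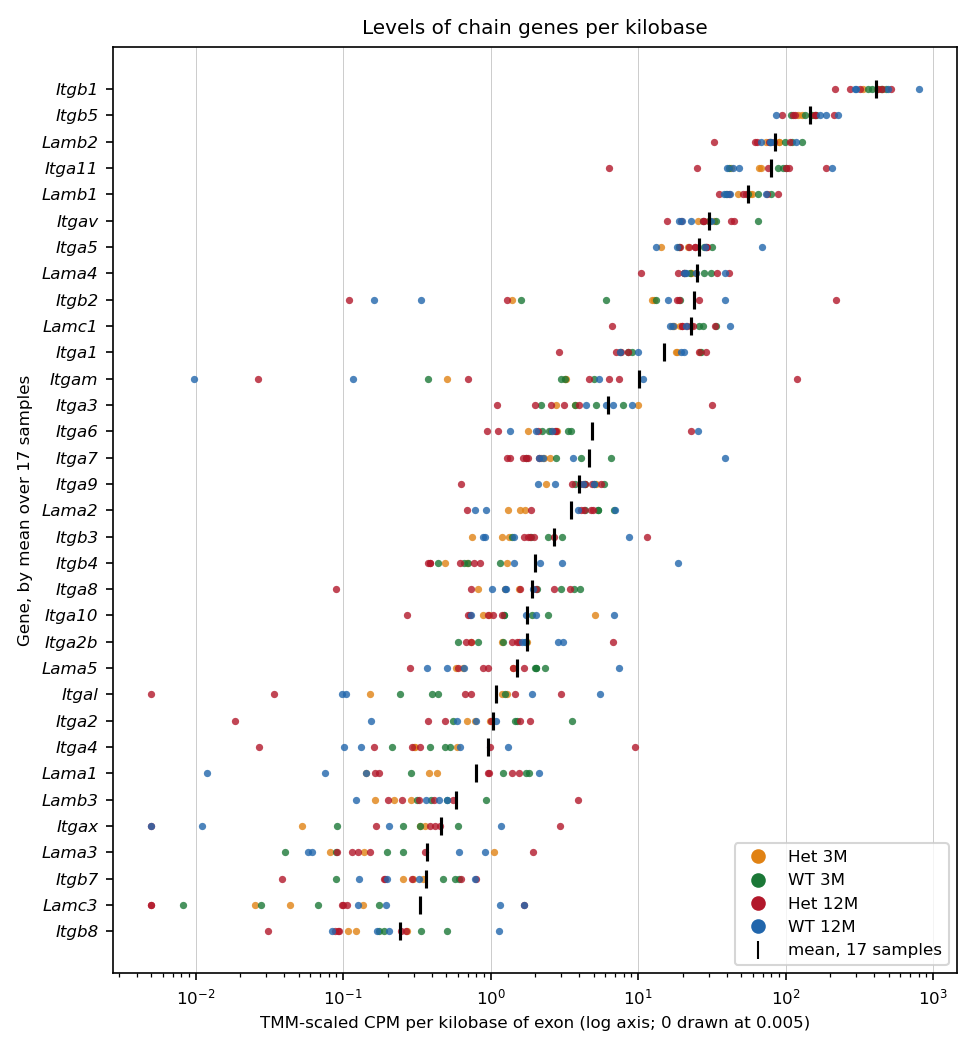
TMM-scaled CPM per kilobase of exon (log axis) for 33 of the genes that passed the filter, ordered by their mean over 17 samples; each point is 1 biological sample, coloured by group, and the black mark is the mean. Itgb1 leads at 409 CPM per kilobase, while Itgb4 averages 2 with its highest sample, WT 12M S6, at 18.6 CPM per kilobase.

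At 3 months the laminin alpha chain genes had a median log2 difference of -1.25 between Het and WT (5 genes), from -1.98 for Lama1 to 1.54 for Lama3. This comparison asks how cells of young mice with 1 floxed Ezh2 allele differ from their controls, and its samples are not in the contrast that chose the family. Lama2 (chromosome 10, 26981285 to 27617191, minus strand, GRCm38.p6), the alpha chain of laminin-211 and laminin-221, known from muscle and peripheral nerve, had 16.9, 12.9 and 15.5 CPM in Het 3M and 52.1, 67.1, 52.8 and 42.9 CPM in WT 3M. The highest Het sample lay below the lowest WT sample by more than the spread within either group. Its log2 difference was -1.83 ± 0.69 (SE), with p = 0.0178 and an adjusted p of 1 by edgeR's quasi-likelihood test. Without S5, the WT sample with the most endothelial transcripts, it was -1.83, and it stayed between -1.93 and -1.69 in every alternative run. Markers of smooth muscle and pericytes, cells known for Lama2, summed over 8 genes to 417 to 3824 CPM in Het 3M and 1372 to 3975 CPM in WT 3M, and the groups overlapped. Of the 8, Myh11, Mcam and Des were lower in every Het 3M sample than in any WT 3M sample, as were 3.57% of all genes. The other markers overlapped. Acta2 averaged 1628 CPM in Het 3M and 1733 CPM in WT 3M, Tagln 569 and 621 CPM, and Cnn1 83.7 and 69.8 CPM. Myh11, smooth muscle myosin, had 3.93, 4.95 and 1.93 CPM in Het 3M against 16.6, 9.41, 9.42 and 6.84 CPM in WT 3M, and Mcam had 5.57, 6.34 and 3.3 CPM against 13, 12.4, 19.9 and 7.19 CPM. The part of these cells in the Lama2 values was not tested.

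Lama5, the alpha chain of laminin-511 and laminin-521, had 16.1, 7.37 and 6.65 CPM in Het 3M against 22.9, 26.6, 23.3 and 23 CPM in WT 3M. The groups did not overlap, the Het samples were spread more widely than the WT samples, and the log2 difference was -1.25 ± 0.86 (adjusted p = 1, edgeR). Lama1, the alpha chain of embryonic laminin-111, had 4.13, 3.61 and 1.36 CPM in Het 3M against 11.5, 16.5, 17.3 and 2.77 CPM in WT 3M. Here S12 of WT lay among the Het samples, so the groups overlapped, and the difference was -1.98 ± 1.23 (adjusted p = 1, edgeR). Lama4, the chain of stromal and vascular laminin-411, was nearly level, at 149, 137 and 137 CPM in Het 3M against 126, 170, 188 and 137 CPM in WT 3M, with a difference of -0.14 ± 0.36. Lama4 therefore made up 86.9% to 90.4% of the summed laminin alpha level per kilobase in Het 3M, against 70.4% to 77.1% in WT 3M, and Lama2 made up 5.23% to 6.07% against 13.3% to 17.9%. These shares did not overlap between the genotypes at 3M, but at 12M they did: Lama2 was 5.56% to 18.8% in Het 12M and 3.4% to 13.5% in WT 12M.

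Lama3, an alpha chain of epithelial laminin-332, was the member with the highest fitted difference, 1.54 ± 1.22 (adjusted p = 1, edgeR). Its values were 1.49, 0.876 and 11.3 CPM in Het 3M and 2.75, 2.12, 0.961 and 0.435 CPM in WT 3M, so the difference rested on S14. By voom with quality weights it was -0.55.

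Of the partner chains in the trimer, Lamc1 and Lamb3 were lower in every Het 3M sample than in any WT 3M sample, as were 3.57% of all genes. The abundant beta chains Lamb1 (-0.14 ± 0.33) and Lamb2 (-0.31 ± 0.32) overlapped. Lamc1, the gamma chain of most laminins, had 146, 134 and 130 CPM in Het 3M and 196, 258, 211 and 174 CPM in WT 3M. Every Het sample lay below every WT sample, with a log2 difference of -0.61 ± 0.41 (adjusted p = 1, edgeR). Lamb3 had 0.845, 1.13 and 1.48 CPM in Het 3M and 4.79, 1.63, 2.02 and 2.61 CPM in WT 3M, at a level of few counts. Lamb2, abundant in these cells, had 504, 412 and 510 CPM in Het 3M and 621, 560, 443 and 728 CPM in WT 3M, and the groups overlapped through S5.

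**Figure D2:**
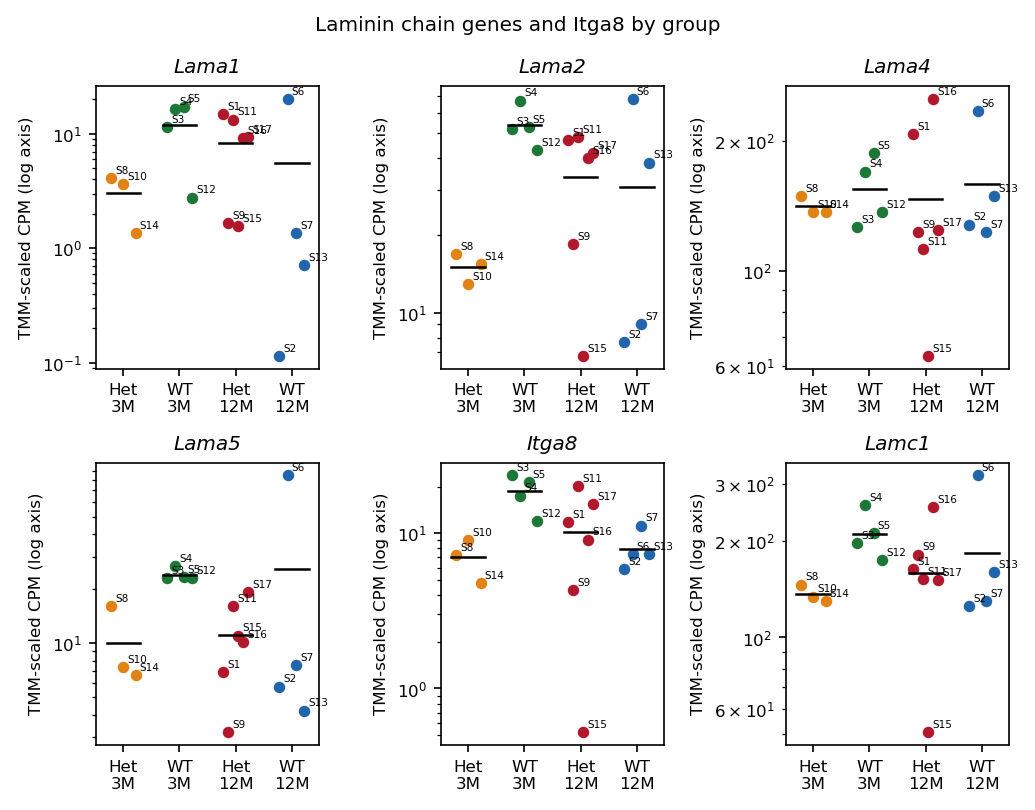
TMM-scaled CPM (log axis) of 5 laminin chain genes and Itga8 in Het 3M, WT 3M, Het 12M and WT 12M; points are biological samples with their numbers and the black line is the group mean. For Lama2, Lama5, Lamc1 and Itga8 the Het 3M points lie below all WT 3M points, while Lama4 is level.

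Among integrin chains at 3M, Itga8 stood out. It encodes α8, which pairs with β1 and binds nephronectin and other RGD ligands. Itga8 had 7.26, 9.02 and 4.77 CPM in Het 3M against 23.6, 17.5, 21.4 and 12 CPM in WT 3M. The groups did not overlap and the log2 difference was -1.41 ± 0.71 (p = 0.0636, adjusted p = 1, edgeR). The β3 chain gene Itgb3, which pairs with αv or, in platelets, with αIIb, had 6.91, 7.73 and 4.32 CPM in Het 3M against 14.1, 17.6, 10.9 and 8.02 CPM in WT 3M. The groups did not overlap, though S10 of Het came close to S12 of WT. Itga1, a collagen-binding chain, went the other way, at 198, 202 and 290 CPM in Het 3M against 100, 94.1, 292 and 82 CPM in WT 3M. The overlap came from WT S5, without which the log2 difference of 0.69 ± 0.65 became 1.33. Itga10, another collagen-binding chain, had 4.48, 4.95 and 25.9 CPM in Het 3M against 6.19, 6.25, 12.4 and 9.61 CPM in WT 3M, so that its difference of 0.45 ± 0.70 turned to -0.87 without S14. Of Itga10's exon bases, 34.5% overlap another annotated gene. Itgal, a leukocyte chain, had 8.31, 7.58 and 0.966 CPM in Het 3M against 7.95, 2.81, 1.54 and 2.57 CPM in WT 3M, and overlapped (0.59 ± 1.42).

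The remaining chains are given by their group means. Itgb1 averaged 1520 ± 215 CPM in Het 3M and 1592 ± 203 CPM in WT 3M (SD, n = 3 and 4), and Itgb5 453 ± 46.7 and 470 ± 76.5 CPM. Itga11 averaged 292 ± 69.7 CPM in Het 3M and 407 ± 136 CPM in WT 3M. Itga5 averaged 80.1 ± 16.4 CPM in Het 3M and 118 ± 24 CPM in WT 3M. Itga2, a further collagen receptor chain, averaged 5.8 ± 1.08 CPM in Het 3M and 12.7 ± 9.1 CPM in WT 3M, and Itga9 28.3 ± 10.3 and 34 ± 6.66 CPM. These groups overlapped. Among low chains, Itgb7 averaged 0.802 ± 0.123 CPM in Het 3M and 1.18 ± 0.641 CPM in WT 3M and Itgax 1.07 ± 0.732 and 1.39 ± 0.924 CPM. Lamb1 was nearly level at 319 ± 37.3 CPM in Het 3M and 351 ± 99.8 CPM in WT 3M.

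Promoter sequences of Lama5 and Itga8 are given. Their Het 3M samples lay below all WT 3M samples, and at least 100 bases of their entry in the promoter table lay outside the gene model. Lama2 and Lamb3 were also separated and had an entry, but 1 and 0 bases of it lay outside the gene model, so they are not printed. Polycomb repressive complex 2 is known in mammals to sit at CpG-rich promoters. The bases are those upstream of the annotated start, outside the gene model, 5′ to 3′ on the gene's strand (the minus strand for both), from RefSeq on GRCm38.p6, with each CG in capitals.

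Lama5, chr2:180225905-180226109: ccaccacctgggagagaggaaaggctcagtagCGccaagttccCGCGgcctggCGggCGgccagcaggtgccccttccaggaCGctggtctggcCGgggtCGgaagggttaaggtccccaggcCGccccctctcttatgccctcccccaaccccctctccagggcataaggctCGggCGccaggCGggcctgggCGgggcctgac
Itga8, chr2:12301986-12302194: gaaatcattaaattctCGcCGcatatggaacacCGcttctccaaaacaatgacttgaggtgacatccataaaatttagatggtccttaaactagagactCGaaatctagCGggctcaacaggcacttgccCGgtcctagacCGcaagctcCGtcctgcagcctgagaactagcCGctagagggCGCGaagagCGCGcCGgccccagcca

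CG, which reads the same on both strands, occurred 13 times in the 205 bases of Lama5 and 14 times in the 209 bases of Itga8. Of the 32851 windows of the same length in the table, 23.1% held at least as many as Lama5 and 21.7% at least as many as Itga8. The 250 bases of Lama2 held 0 CG, as few as 7.87% of windows of that length. The Lamb3 windows held 2 and 3 CG, where the median window of 250 bases held 6. Of the 37 genes, 23 had an entry in the table. The counts describe the sequence alone, and no mark or binding was measured.

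Counted over the family, 27 of 34 genes tested were fitted lower in Het 3M, where 52.5% of all 14897 genes tested were, and 7 were fitted higher (47.5% of all genes). The median log2 difference was -0.29 over the family and -0.02 over all genes. In 6 genes every Het sample lay below every WT sample (Itga8, Itgb3, Lama2, Lama5, Lamb3 and Lamc1), against 3.57% of all genes, and in 0 genes above, against 3.21%. No gene, in the family or outside it, passed an adjusted p of 0.05 (0% called), and at an unadjusted p of 0.05 the test called 1 member lower (Lama2; 0.792% of all genes) and 0 higher (0.812%). DESeq2 also called 0 genes, while voom with sample quality weights called 1292 genes and 8 members. Leaving out any 1 of the 7 samples left 6 to 10 members separated downward, against 4.81% to 9.58% of all genes. The 10 came without WT S5, where the share of all genes was 9.58%. Without S5, 1 member (Itga1) was separated upward, against 8.35% of all genes. The count of members fitted lower was 21 without WT S4 and 24 to 28 in the other alternatives. Het S8 and S10 were the closest pair of samples in their counts, and the labels do not say whether they share a mouse or culture. Counted as 1 sample, which leaves Het 3M with 2, they gave 25 members fitted lower and 0 called.

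The genes that work with the family were also examined. The integrin adhesion complex includes the talins, kindlins, ILK and kinases assembled at the tails of beta chains. Of its 37 tested genes, 29 were fitted lower in Het 3M, where 52.5% of all genes were. Their median was -0.15, against -0.02 over all genes. Among them Tns1, which links integrins to actin, had the smallest p (-0.72 ± 0.34, p = 0.0491, adjusted p = 1, edgeR), followed by Zyx, zyxin (-0.92 ± 0.48). Cav1 (0.27 ± 0.38) and Tln2 (0.22 ± 0.47) led the higher ones. Of 17 tested basement membrane partners of laminin, 11 were fitted lower with a median of -0.04, against 52.5% and -0.02 over all genes. The collagen IV genes Col4a2 (-1.38 ± 0.72) and Col4a1 (-1.49 ± 0.79) had the smallest p among them. Nid1, a nidogen that bridges laminin to collagen IV, chosen after its values were seen, had 243, 219 and 286 CPM in Het 3M against 431, 568, 357 and 353 CPM in WT 3M. For Nid1 every Het sample lay below every WT sample, as in 3.57% of all genes. The other nidogen, Nid2, went the other way, at 429, 329 and 325 CPM in Het 3M against 198, 274, 396 and 127 CPM in WT 3M. Its groups overlapped (0.54 ± 0.49). Other integrin ligands were split, 7 higher and 7 lower. Ibsp, bone sialoprotein, had 164, 148 and 557 CPM in Het 3M against 14.9, 18.6, 92.3 and 25.2 CPM in WT 3M. Every Het sample lay above every WT sample (2.94 ± 1.38, p = 0.0491, adjusted p = 1, edgeR), and Spp1, osteopontin, was next at 1.22 ± 0.69. Fn1, fibronectin (-0.76 ± 0.55), and Ccn2 (-1.29 ± 0.84) led the lower ones.

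At 12 months the gene through which the family was chosen, Itgb4, had the lowest fitted difference of the 34. Itgb4 lies on chromosome 11 at 115974725 to 116008412 (GRCm38.p6) and encodes β4, which pairs only with α6 in a laminin receptor that anchors hemidesmosomes in epithelia and is also present in Schwann cells. In Het 12M it ranged from 2.38 to 5.43 CPM with a median of 3.23, against 13.7, 119, 19.3 and 9.12 CPM in WT 12M (S2, S6, S7 and S13). The groups did not overlap, the log2 difference was -3.48 ± 0.60, and without S6 it was -1.96. These values chose the family and carry no test. At 3M Itgb4 had 4.38, 3.14 and 8.24 CPM in Het and 4.22, 7.44, 2.79 and 4.51 CPM in WT, a difference of 0.15 ± 0.70. The WT 12M samples were thus the high ones of the 4 groups. Of the Itgb4 exon bases, 8.41% overlap an antisense gene, which this kit cannot tell apart.

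The partner receptors differed in pattern. Itga7, a laminin-binding alpha chain known from muscle, ranged from 5.33 to 8.76 CPM in Het 12M (median 7.02) against 15, 162, 8.83 and 9.31 CPM in WT 12M. The groups were separated, with Het S9 just below WT S7, and the log2 difference of -2.83 ± 0.66 was -0.69 without S6. Itga6, the partner of β4, was not separated: it ranged from 4.14 to 99.9 CPM in Het 12M (median 10.5) and was 11.3, 112, 8.83 and 5.94 CPM in WT 12M. Itga3, which pairs with β1, ranged from 5.81 to 166 CPM in Het 12M (median 15), with S15 highest, and was 35.6, 31.7, 47.8 and 23.4 CPM in WT 12M. Without S15, 5 members were separated downward (2.03% of all genes), Itga3, Itga2b and Lamc3 added to the others. Of 3 tested hemidesmosome partners of β4, 3 were fitted lower in Het 12M (44.3% of all genes), with a median of -0.24, and 0 were separated. Plec ranged from 322 to 606 CPM in Het 12M and 469 to 1101 CPM in WT 12M, with S6 highest (-0.36 ± 0.26). Dst (-0.19 ± 0.33) and Cd151 (-0.24 ± 0.27) also overlapped. Col17a1 stayed at or below 0.997 CPM in all samples.

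**Figure D3:**
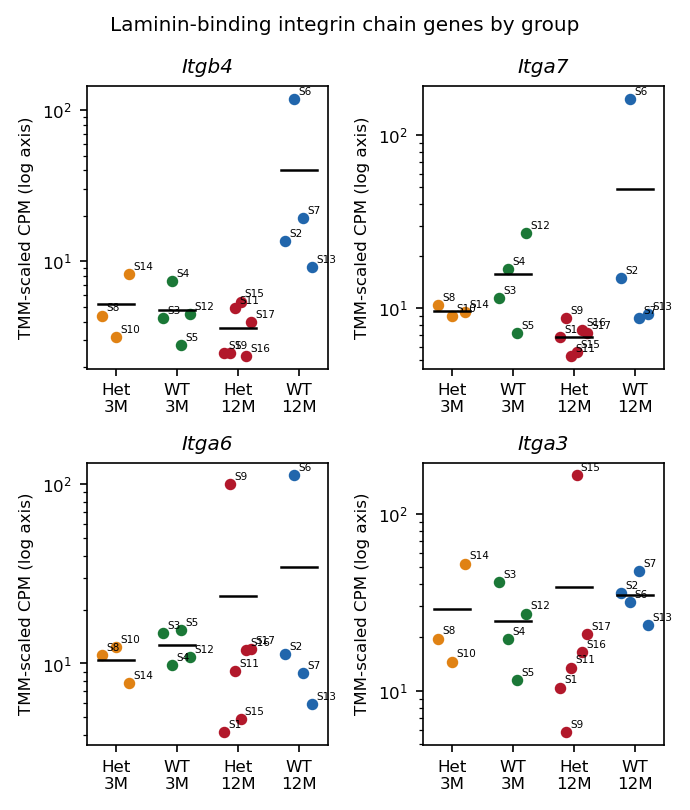
TMM-scaled CPM (log axis) of the 4 laminin-binding integrin chain genes in Het 3M, WT 3M, Het 12M and WT 12M; points are biological samples with their numbers and the black line is the group mean. Itgb4 in Het 12M lies at 2.38 to 5.43 CPM below all WT 12M points, and S6 is the highest WT 12M sample for Itgb4, Itga7 and Itga6.

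Itga10 ranged from 1.37 to 6.06 CPM in Het 12M (median 4.25) against 10.3, 8.74, 34.7 and 3.7 CPM in WT 12M, a difference of -1.80 ± 0.59 that was -0.88 without S7. Itgb8, whose product with αv binds latent TGFβ, ranged from 0.262 to 2.25 CPM (median 0.78) against 1.72, 9.46, 0.703 and 1.42 CPM. Both overlapped, and for Itgb8 the difference of -1.54 ± 0.68 was -0.16 without S6. The higher members were also overlapping: Lamb3, for which S15 had 19.9 CPM, ranged from 1.04 to 19.9 CPM in Het 12M (median 1.89) against 0.631, 1.87, 2.59 and 2.28 CPM in WT 12M, and its 1.38 ± 0.78 was -0.05 without S15. Itgav ranged from 110 to 317 CPM in Het 12M (median 196) against 134, 219, 139 and 161 CPM in WT 12M, a difference of 0.36 ± 0.31. The Schwann and neural crest markers, such as Sox10 (231 CPM) and Ngfr (722 CPM), were highest in S6 except for S100b. That marker had 13.1 CPM in S6 against 48, 91.4 and 20.8 CPM in S2, S7 and S13. S6 also had the highest sums of smooth muscle and pericyte markers (7312 CPM) and of 4 proliferation markers (376 CPM). The part of any of these in the values above was not tested.

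The family as a whole was fitted higher in 16 and lower in 18 genes in Het 12M, against 55.7% and 44.3% of all genes, with a median of -0.05 against 0.05. At an unadjusted p of 0.05, 4 members were lower (4.93% of all genes) and 0 higher (3.44%), and 2 members were separated downward (0.853%) and 0 upward (0.47%). These are counts in the contrast that chose the family and nothing is read from them. Without S9, S15 and S6 together, 5 members were separated downward (5.82% of all genes) and 6 upward (4.36%), Lama1, Lama2 and Lamb1 among those upward.

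Of 17 tested basement membrane partners of laminin, 13 were fitted lower in Het 12M, where 44.3% of all genes were, with a median of -0.68. Their summed level was 1546 to 3393 CPM in Het 12M (median 2478) against 2004, 11730, 2920 and 2546 CPM in WT 12M, so that S6 stood apart and the other WT samples lay within the Het range. The 1 partner whose groups did not overlap, where 0.853% of all genes were separated downward, was Ntn4, netrin-4, which binds laminin gamma chains. It was at 12.8 to 48.1 CPM in Het 12M (median 25.4) against 69.6, 140, 54.5 and 83.7 CPM in WT 12M. Its log2 difference was -1.64 ± 0.41, against -0.03 ± 0.49 at 3M. No gene passed an adjusted p of 0.05 by edgeR in this comparison at 12M. Col18a1, a collagen of basement membranes, was at 27.5 to 74.9 CPM in Het 12M against 61.2, 2918, 71.1 and 27.7 CPM in WT 12M, and Col15a1 at 2.22 to 14.5 CPM against 5.34, 588, 9.36 and 6.41 CPM. Both were fitted lower, -4.09 ± 0.96 for Col18a1 and -4.54 ± 1.08 for Col15a1, S6 being the highest WT sample by far. The higher ones were small, led by the sarcoglycans Sgcb (0.25 ± 0.23) and Sgce (0.23 ± 0.23).

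Leukocyte integrin chains varied widely within each group. Itgam, the αM chain of macrophages and neutrophils, ranged from 0.131 to 587 CPM in Het 12M (median 27.2) and was 52.7, 0.048, 26.9 and 0.57 CPM in WT 12M. Itgb2, the β2 chain shared by leukocyte integrins, ranged from 0.327 to 653 CPM in Het 12M (median 55.1) and was 116, 0.48, 47.2 and 0.997 CPM in WT 12M. Both overlapped, with Het S9 above every WT 12M sample for each. Itgam's difference of 2.50 ± 1.64 was -0.08 without S9. Itga4, whose product binds VCAM1, ranged from 0.262 to 92.6 CPM in Het 12M (median 3.05) against 12.9, 1.3, 6.06 and 0.997 CPM in WT 12M, and its 1.80 ± 1.19 was -0.57 without S9. Over the 17 samples the summed level of the 7 leukocyte chains ran from 2.16 CPM in S6 to 1259 CPM in S9, where the 12 myeloid markers summed to 47.5 and 40821 CPM. For Itgam, 70% of exon bases overlap the annotated gene Gm49368.

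**Figure D4:**
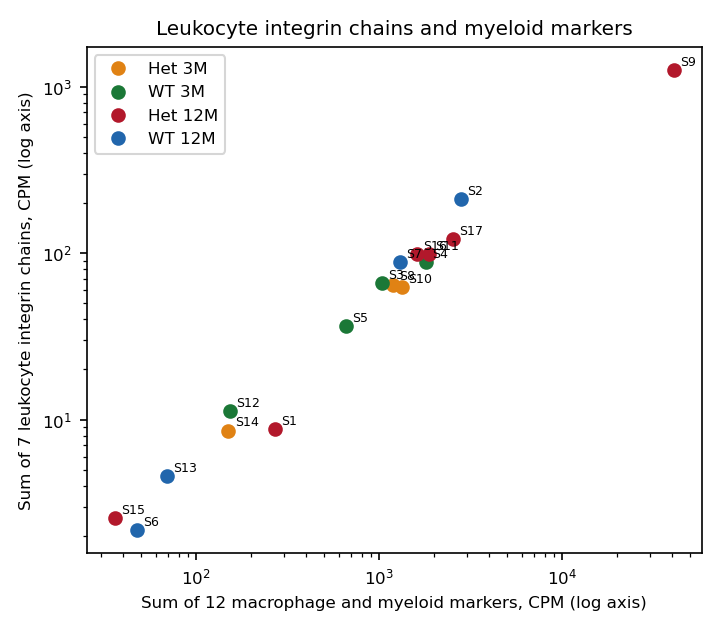
Summed TMM-scaled CPM of the 7 leukocyte integrin chains (y, log axis) against that of 12 macrophage and myeloid markers (x, log axis), 1 point per biological sample, coloured by group. S9 (1259 and 40821 CPM) is at the top and S6 (2.16 and 47.5 CPM) at the bottom, and each group holds low and high samples.

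Age was compared within each genotype, and these comparisons share the 12M samples with the contrast that chose the family. In WT, 23 of 34 members were fitted higher at 12M (53.8% of all genes) and 11 lower (46.2%), with a median of 0.16 against 0.04 over all genes, but without S6 13 were higher and 21 lower. Itgb4 had 13.7, 119, 19.3 and 9.12 CPM in WT 12M and 4.22, 7.44, 2.79 and 4.51 CPM in WT 3M, and its groups did not overlap. Itga8 had 5.91, 7.3, 11.2 and 7.36 CPM in WT 12M and 23.6, 17.5, 21.4 and 12 CPM in WT 3M. Every WT 12M sample lay below every WT 3M sample, with a log2 difference of -1.23 ± 0.64 (p = 0.0715, adjusted p = 0.633, edgeR). Itgav had 134, 219, 139 and 161 CPM in WT 12M and 213, 195, 457 and 237 CPM in WT 3M, -0.76 ± 0.34 (p = 0.0401, adjusted p = 0.592, edgeR), and -0.40 without WT 3M S5. Lamc3, a gamma chain, had 1.15, 9.84, 0.747 and 6.74 CPM in WT 12M against 0.164, 0.394, 0.0481 and 1.03 CPM in WT 3M. The difference was 3.47 ± 1.51 (p = 0.0356, adjusted p = 0.592, edgeR), and it was 2.77 without S6. Lama2 had 7.69, 68.2, 9.05 and 38.5 CPM in WT 12M against 52.1, 67.1, 52.8 and 42.9 CPM in WT 3M, split between low samples S2 and S7 and high samples S6 and S13. The smooth muscle and pericyte markers split alike, at 380 and 732 CPM in S2 and S7 and 7312 and 5110 CPM in S6 and S13, and their part in the result was not tested. Itga7 had 15, 162, 8.83 and 9.31 CPM in WT 12M against 11.5, 16.9, 7.16 and 27.2 CPM in WT 3M, and its difference of 1.64 ± 0.74 was -0.51 without S6. Itga2b, the platelet chain αIIb, had 10.6, 5.57, 9.89 and 5.84 CPM in WT 12M against 4.18, 5.96, 2.07 and 2.81 CPM in WT 3M (1.09 ± 0.62). Itga2 had 5.62, 4.22, 7.65 and 1.09 CPM in WT 12M against 10.4, 10.8, 25.5 and 3.95 CPM in WT 3M (-1.44 ± 0.84). Both overlapped. At an unadjusted p of 0.05 the test called 3 members higher, where 4.67% of all genes were, and 1 lower (3.55%), and 1 member was separated in each direction (4.03% and 4.07% of all genes). Itgb4, whose values chose the family, is among the 3 and is the member separated upward, and nothing is read from its place in these counts. Without S6 6 members were separated downward, where 6.52% of all genes were. Among ligands, Fn1 had 7140, 18564, 15447 and 5779 CPM in WT 12M against 19451, 22899, 36161 and 29991 CPM in WT 3M. The groups did not overlap, at -1.21 ± 0.51 (p = 0.0289, adjusted p = 0.59, edgeR).

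In Het, 25 of 34 members were fitted higher at 12M (57.7% of all genes) and 9 lower (42.3%), with a median of 0.19 against 0.07. The samples labelled male were S8 and S10 at 3M but only S17 at 12M, so age and sex are partly mixed here. With a term for labelled sex 21 members were higher and 13 lower, and with a covariate of Y-linked transcripts 26 and 8. Lama2 ranged from 6.8 to 48.4 CPM in Het 12M (median 41.1) against 16.9, 12.9 and 15.5 CPM in Het 3M. Of the 6 samples, S15 lay below the Het 3M range, S9 just above it and 4 well above it, and the difference was 1.16 ± 0.64 (p = 0.088, adjusted p = 0.946, edgeR). Itgb3 ranged from 9.74 to 66 CPM in Het 12M (median 11.1) against 6.91, 7.73 and 4.32 CPM in Het 3M. It was the 1 member separated upward (0.49% of all genes), at 1.71 ± 0.80 (p = 0.0491, adjusted p = 0.946, edgeR), and at 0.87 without S9. Itga7 was the 1 member separated downward (1.42% of all genes), with 5.33 to 8.76 CPM in Het 12M (median 7.02) and 10.5, 9.07 and 9.55 CPM in Het 3M. Lamb3 at 2.06 ± 0.90 (p = 0.0369, adjusted p = 0.946, edgeR) was 0.63 without S15, and Itga10 at -1.51 ± 0.63 had p = 0.028 and an adjusted p of 0.946, with -0.10 by voom. Itgam had 15.7, 15.9 and 2.5 CPM in Het 3M, and its 3.32 ± 1.95 was 0.74 without S9. Itga1 (-0.64 ± 0.59), Lamb2 (-0.26 ± 0.29) and Itgb4 (-0.54 ± 0.64) overlapped. At an unadjusted p of 0.05 the test called 2 members higher (1.56% of all genes) and 1 lower (1.72%). Ibsp ranged from 2.55 to 107 CPM in Het 12M (median 21.2) and lay below the 164, 148 and 557 CPM of Het 3M in every sample (-3.02 ± 1.2, p = 0.0229, adjusted p = 0.946, edgeR).

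The interaction of genotype and age contains the contrast that chose the family and nothing is read from it. Of the 34 members 20 were fitted higher (56.3% of all genes) and 14 lower (43.7%), and at an unadjusted p of 0.05 it called 2 higher (2.5%) and 2 lower (3.26%).

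**Figure D5:**
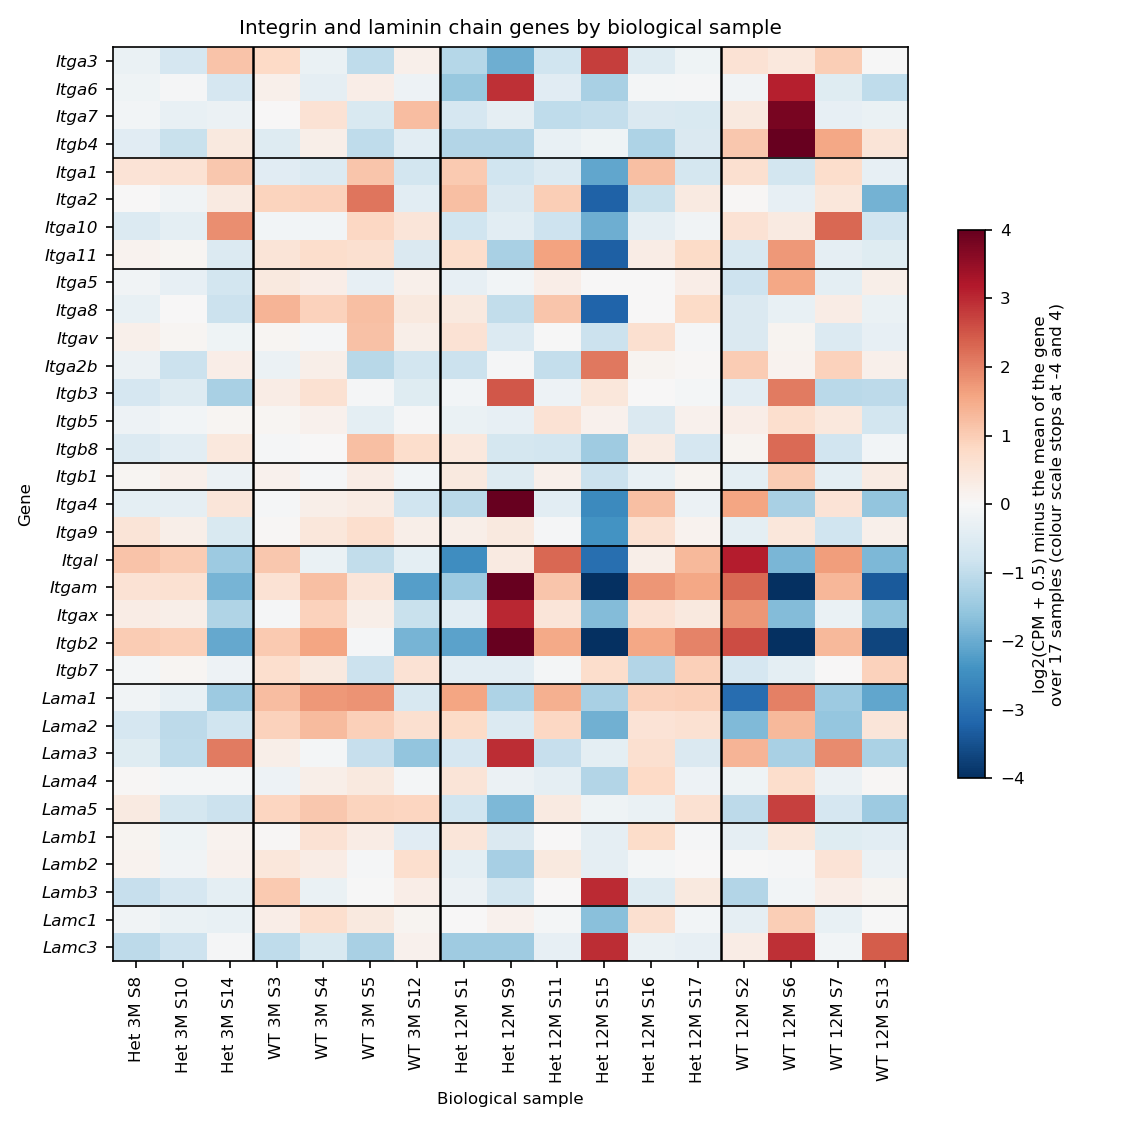
log2(CPM + 0.5) of 33 genes in each biological sample minus the gene's mean over 17 samples, with rows grouped by role (integrin classes, then laminin alpha, beta and gamma chains) and columns by group; red is above and blue below the mean, and the colour scale stops at -4 and 4. The columns of WT 12M S6, Het 12M S9 and Het 12M S15 stand out, and Lama1, Lama2, Lama5 and Itga8 are mostly above their mean in WT 3M.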

How the data were processed

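The values deposited by the authors are whole-number counts of reads per gene, and the submitters' processing notes name Subread, featureCounts and the build mm10, without their roles. Versions, annotation, strand and the handling of multi-mapped reads are not given in the sources used here, and the TruSeq v2 kit marks no strand. All 68 columns were mapped (0 unmapped), and the 4 technical replicates of each of 17 biological samples, which differed by a chi-square per degree of freedom of at most 1.086, were summed. Different samples gave at least 17.43 (S8 and S10 of Het 3M; the next was 38.56). Of 27179 identifiers, 1904 had no symbol in the RefSeq table of GRCm38.p6 (mm10) and held 0.573% of counts.

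Counts were fitted with edgeR 4.0.16 (R 4.3.3): TMM scaling, filterByExpr, 1 term per group, quasi-likelihood F-test, 2-sided, Benjamini-Hochberg over 14897 genes, threshold 0.05. No sex term was used, since the labelled sex and sex-linked transcripts disagreed. Log2 differences are the first group minus the second, ± SE, and levels are TMM-scaled CPM unless given per kilobase. The script was tested on simulated data. Alternatives were DESeq2 1.42.0, voom (limma 3.58.1), other scaling, filters and covariates, and samples left out. Values by sample are given for Itgb4 and for the 4 members with the smallest p in each direction of each comparison, with group means for other members; any further genes and samples were picked after their values were seen. Of the members, 1 is counted with the family but not reported here by name. Members and lists were chosen with earlier results of these data known.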

Additional observations from a re-analysis of the deposited data

Results flagged for a closer look

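Of 99 groups of samples tested for a value far from the rest, 23 were flagged. Chance flags about 1 in 20 when values are normally spread and independent. These were unlogged levels of genes measured in the same samples, so the 23 cannot be set against that rate. WT 12M S6 was high for Itga11 (1020 CPM), Itga6 (112), Itga7 (162), Itgb3 (49.8), Itgb4 (119), Itgb8 (9.46), Lama1 (20.2), Lama5 (84.8) and Lamb1 (429 CPM). It also had the highest sum of Schwann cell and neural crest markers, 1355 CPM, and the part of those cells was not tested.

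Het 12M S9 was high for Itga4 (92.6 CPM), Itga6 (99.9), Itgam (587), Itgax (12.8), Itgb2 (653), Itgb3 (66) and Lama3 (21 CPM), and had 40821 CPM over the myeloid markers. Het 12M S15 was high for Itga2b (23.1 CPM), Itga3 (166), Lamb3 (19.9) and Lamc3 (9.94 CPM), with the lowest stromal marker sum, 6473 CPM. In WT 3M, S5 was high for Itga1 (292 CPM) and Itgav (457 CPM), with 89.9 CPM over 10 endothelial markers, and S4 for Lama5 (26.6 CPM), where the 4 samples lay within 22.9 to 26.6 CPM.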

How the results depend on the processing

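With the threshold at an adjusted p of 0.05, the number of members called by edgeR was 0 in all 5 comparisons, and 102 of 110 alternative counts of members also stood at 0. The 8 others were: voom with quality weights called 8 members in Het 3M against WT 3M, 2 in Het 12M against WT 12M, 8 in WT 12M against WT 3M and 5 in the interaction of genotype and age; DESeq2 called 2 in Het 12M against WT 12M, 1 in WT 12M against WT 3M and 1 in the interaction. Leaving out each sample gave 0 to 1 members in Het 12M against WT 12M, the 1 without WT 12M S13. The calls in Het 12M against WT 12M, in the interaction and in WT by age include Itgb4, whose values chose the family, and are counts with nothing read from them. Over all genes, edgeR called 0 in each comparison, with 239 genes at an unadjusted p of 0.05 in Het 3M against WT 3M, 1247 in Het 12M against WT 12M, 1224 in WT by age and 489 in Het by age. DESeq2 called 0, 106, 53 and 1 genes and voom 1292, 171, 1508 and 1, in the same order, and in the interaction 35 and 939. The cause of these gaps was not tested. Without WT 12M S13 and without S7, edgeR called 2 genes and 1 gene in Het 12M against WT 12M, and without S9, S15 and S6 it called 2 in WT by age. Counts of separated members with a sample left out were added after seeing the data. No paired analysis was possible because the sample numbers are unique to each group and the technical replicate numbers only mark repeat columns of 1 sample. Depth limits low genes such as Lamc3, at 0 counts in Het 12M S1, where a count of 0 allows up to 0.219 CPM.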
